A study of Flaveria angustifolia and Flaveria bidentis and Flaveria brownii with 21 samples.

Results

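The 43 loci described here had higher RNA levels in leaves of both Flaveria brownii and Flaveria pubescens, the species that stand for clade B of the genus, than in leaves of any of 9 other Flaveria species. They were chosen from the 14479 loci, of 20551 measured, whose level averaged 2 RPM or more (RPM, reads of the locus per 1e+06 assigned reads of the library). For each species the log2(RPM + 1) values of its libraries were averaged, and a locus was kept when the lower of the 2 clade B species lay at least 0.5 above the highest of the other 9. That margin is called the gap below. Because the same values chose the loci, their levels in clade B against the rest are given as a description, with no test.

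The leaf RNA came from 18 libraries of 11 Flaveria species grown in a greenhouse, and each library pooled leaves of several plants, so no library measures the spread between plants of a species. Mature leaves, the youngest ones to have reached full size, gave 8 libraries, and juvenile leaves, which were just starting to expand on the main stem, gave 10. F. brownii and F. pubescens each had 1 mature and 1 juvenile library. Clade A, as textbooks divide the genus, was represented by F. bidentis and F. trinervia with both stages, F. kochiana with a mature library, and F. palmeri and F. vaginata with a juvenile library each. The basal species were F. angustifolia, F. cronquistii and F. pringlei with both stages and F. sonorensis with a juvenile library. No species carried a treatment or a genetic change.

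Flaveria is a genus of the daisy family in which C4 photosynthesis, a pump that concentrates carbon dioxide around Rubisco, arose recently enough that living species still show the steps. Its later branches form clade A, which holds the C4 species together with some C4-like ones, and clade B, which holds C3-C4 intermediates such as F. pubescens and the C4-like F. brownii. In an intermediate, carbon dioxide released by photorespiration is recaptured in the bundle sheath, while a C4-like species runs most of a C4 cycle without full separation of the enzymes between cell types. A locus high in both clade B species is therefore shared by leaves of different photosynthetic type that have a common ancestry. Clade and type are background knowledge and not part of the sample labels.

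Reads of every Flaveria species were assigned to Arabidopsis loci, so a value counts the Flaveria reads that matched that Arabidopsis gene. Where a gene family has several similar copies, reads could have been divided among loci, and all values of such loci are uncertain to that degree. The table pairs no locus with a gene name, so the 43 loci are given by identifier only. RPM is not corrected for transcript length, and levels are compared only between libraries for the same locus. In bulk leaf RNA, more cells of a type and more RNA per cell cannot be told apart.

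The 4 clade B libraries held 5.54 to 7.16 M assigned reads (M, 1e+06 reads) and the 14 others 5.40 to 9.15 M. A listed 0 sets an upper limit of 3 reads, which is 0.328 RPM at the largest total and 0.556 RPM at the smallest, for counting error only. The mature library of F. brownii stood apart from the other 17. The summed level of 19 senescence and proteolysis loci was 3188 RPM there, against 576 RPM in juvenile F. brownii, 1269 RPM in mature and 752 RPM in juvenile F. pubescens, and 504 to 2679 RPM in the 14 other libraries. Of those 19 loci 9 had their highest value in that library and 1 was at 0. SAG12, a cysteine protease that marks leaf senescence in Arabidopsis, reached 865 RPM, against 0.559 to 149 RPM in all other libraries. That amount was larger than the distance of the sum from the highest of the 14 others, so the lead of the sum rested on SAG12. Other listed loci went the other way: SWEET15, at 4.76 RPM, and NOL, at 10.1 RPM, had their lowest value of all libraries there. The 10 phloem and xylem loci summed to 2117 RPM, against 361 to 831 RPM in the other libraries, and 3 of the 10 peaked there with none at 0. Most of that sum was XCP1, a xylem cysteine protease, at 1125 RPM. In the same list SUC2, at 415 RPM, and AHA3, at 405 RPM, also peaked there, while CESA8, at 17.8 RPM, had its lowest value. The 16 meristem and flower loci summed to 85.6 RPM there and to 42.8 to 113 RPM in the 14 libraries outside clade B, with 5 at 0. This library was also left out of the choice of the 43 loci, an alternative chosen after seeing the data: the rule then kept 53 loci, of which 27 were among the 43. Among the 20 loci with the largest gaps, AT4G20780, AT3G55950, AT4G30660, AT5G46220, AT4G17940, AT3G26150 and AT3G63080 no longer met it. F. brownii then had juvenile leaves alone, and no other clade B library was left out. The loss therefore cannot be assigned to this library rather than to leaf age. Scaling of the libraries bears on the choice as well. With TMM, a scaling by the trimmed mean of ratios between libraries, 24 loci met the rule and 22 of them were among the 43, and of the 20 largest gaps those of AT4G17670, AT1G21600 and AT3G63080 fell short.

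The 43 loci were 0.297% of those examined. Their gaps ran from 0.50 to 2.49 with a median of 0.70, and 9 had a gap of at least 1. The ratio of the mean RPM of the 2 clade B species to that of the other 9 ran from 1.87 to 24.0 with a median of 3.62. In 9 loci this ratio was over 10, and in 16 it was under 3. Just inside the limit were AT1G22270 with a gap of 0.51, AT5G25120 with 0.51 and AT4G18800 with 0.50. Just outside it were AT1G22530 with a gap of 0.497, AT2G24990 with 0.49 and AT5G17540 with 0.49, so the limit does not separate distinct groups of loci. Each locus rested on 155 to 6148 reads over the 4 clade B libraries, with a median of 610. In 11 loci the lower clade B species averaged under 10 RPM, and in 2 it averaged 100 RPM or more.

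The species means do not require every clade B library to be above every other. In 23 of the 43 loci all 4 clade B libraries lay above all 14 others, and in 20 the libraries overlapped. Over all loci examined 46, or 0.318%, had this separation, and since the rule used the same contrast nothing is read from the difference. The loci were spread over the 5 nuclear chromosomes of Arabidopsis, with 11 on chromosome 1, 3 on chromosome 2, 10 on chromosome 3, 11 on chromosome 4 and 8 on chromosome 5. None was a chloroplast or mitochondrial locus, and no pair had neighbouring locus numbers.

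**Figure D1:**
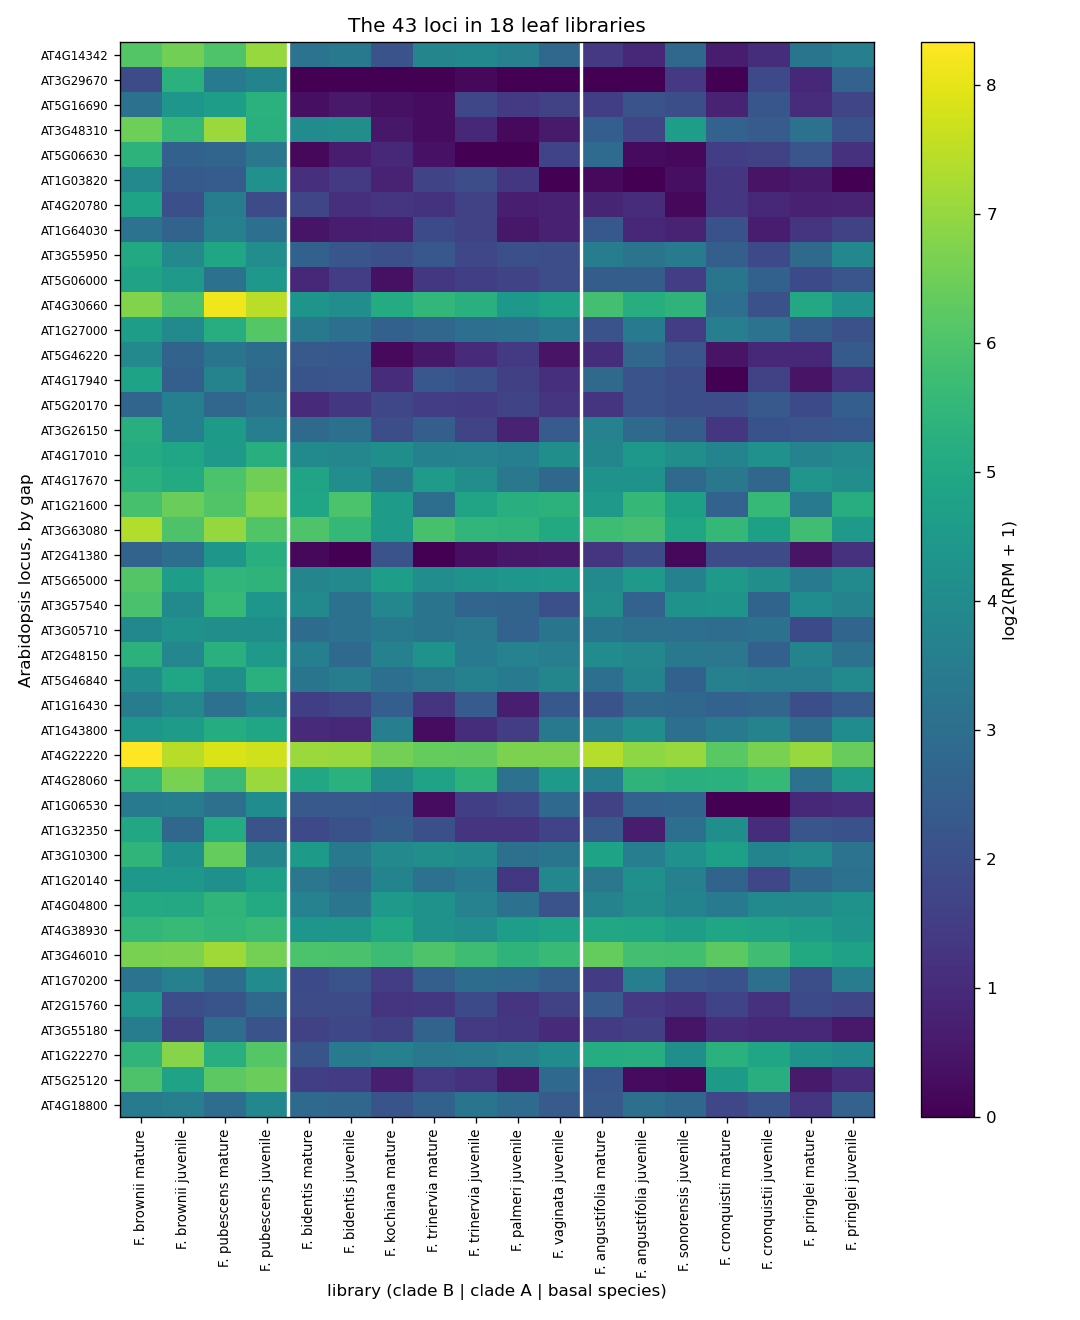
Heat map of log2(RPM + 1) for the 43 loci (vertical axis, ordered by gap from 2.49 at the top to 0.50 at the bottom) in the 18 libraries (horizontal axis), with white lines between clade B, clade A and basal species. As a group the 4 clade B columns on the left are brighter than the rest of a row, clearly so in the upper rows and by a narrow margin in the lower ones.

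AT4G14342 had the widest gap. It was measured at 67.3 RPM in mature and 93.4 RPM in juvenile F. brownii, and at 64.5 RPM in mature and 131 RPM in juvenile F. pubescens. The 14 other libraries ran from 0.550 to 13.7 RPM with a median of 7.09 RPM. No library outside clade B came near the lowest clade B library, and the species averaged 89.1 ± 12.4 RPM in clade B (SD, n = 2) against 6.71 ± 4.39 RPM in the others (SD, n = 9), a ratio of 13.3. Within the others, trinervia was highest and cronquistii lowest.

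AT5G16690 came next among the loci without overlap. Mature F. brownii had 7.65 RPM and juvenile F. brownii 19.7 RPM, while F. pubescens had 24.0 RPM in mature and 39.2 RPM in juvenile leaves. The other libraries lay between 0.218 and 3.70 RPM with a median of 1.81 RPM. All 4 clade B libraries were above all others, although mature F. brownii was closer to them than the rest. The means were 22.6 ± 12.7 RPM in clade B (SD, n = 2) and 1.71 ± 0.937 RPM in the other species (SD, n = 9).

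AT3G48310 was high in all 4 clade B libraries, and it was the locus with the widest margin among mature leaves. F. brownii had 88.6 RPM in mature and 46.3 RPM in juvenile leaves, and F. pubescens had 135 RPM in mature and 37.8 RPM in juvenile leaves. Outside clade B the libraries ran from 0.153 to 24.7 RPM with a median of 3.78 RPM. The highest of these was juvenile F. sonorensis, followed by F. bidentis with 15.3 RPM in mature and 16.3 RPM in juvenile leaves. Its level in the other species was thus uneven, at 6.21 ± 8.49 RPM (SD, n = 9), against 76.9 ± 13.4 RPM in clade B (SD, n = 2).

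AT3G29670 had the largest ratio of means, 24.0, and the fewest reads outside clade B. In F. brownii it had 2.74 RPM in mature and 39.0 RPM in juvenile leaves, and in F. pubescens 9.50 RPM in mature and 12.6 RPM in juvenile leaves. Of the 14 other libraries 9 were at 0, the median was 0 and the highest, juvenile F. pringlei, had 5.19 RPM. The libraries overlapped, because mature F. brownii lay below that value. The 5 clade A species held 1 read of this locus in all, the 4 basal species 64 and clade B 381, so within the table the reads outside clade B came almost wholly from basal species. Over species the means were 16.0 ± 6.96 RPM (SD, n = 2) in clade B and 0.666 ± 1.09 RPM in the others (SD, n = 9).

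Several of the wide gaps belonged to loci with few reads, where the clade B libraries also differed among themselves. AT5G06630 had 40.6 RPM in mature F. brownii but 5.06 RPM in juvenile F. brownii, 5.59 RPM in mature F. pubescens and 8.88 RPM in juvenile F. pubescens. The others ran from 0 to 6.45 RPM with a median of 0.753 RPM, and mature F. angustifolia at 6.45 RPM was above the lower pair of clade B libraries. AT1G03820 had 14.1 RPM in mature F. brownii, 4.16 RPM in juvenile F. brownii, 4.33 RPM in mature F. pubescens and 17.4 RPM in juvenile F. pubescens. No other library passed 2.93 RPM (median 0.649 RPM), so the groups did not overlap, but the higher stage was mature in F. brownii and juvenile in F. pubescens. AT4G20780 had 27.6 RPM in mature F. brownii, 3.07 RPM in juvenile F. brownii, 10.2 RPM in mature F. pubescens and 2.74 RPM in juvenile F. pubescens. The other libraries lay at 0.133 to 2.31 RPM (median 1.00 RPM), so clade B stood well clear in mature leaves and only just clear in juvenile leaves. AT1G64030 had 8.08 RPM in mature and 5.24 RPM in juvenile F. brownii, and 11.5 RPM in mature and 7.26 RPM in juvenile F. pubescens. Elsewhere it had at most 3.87 RPM (median 0.846 RPM), and the groups did not overlap.

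**Figure D2:**
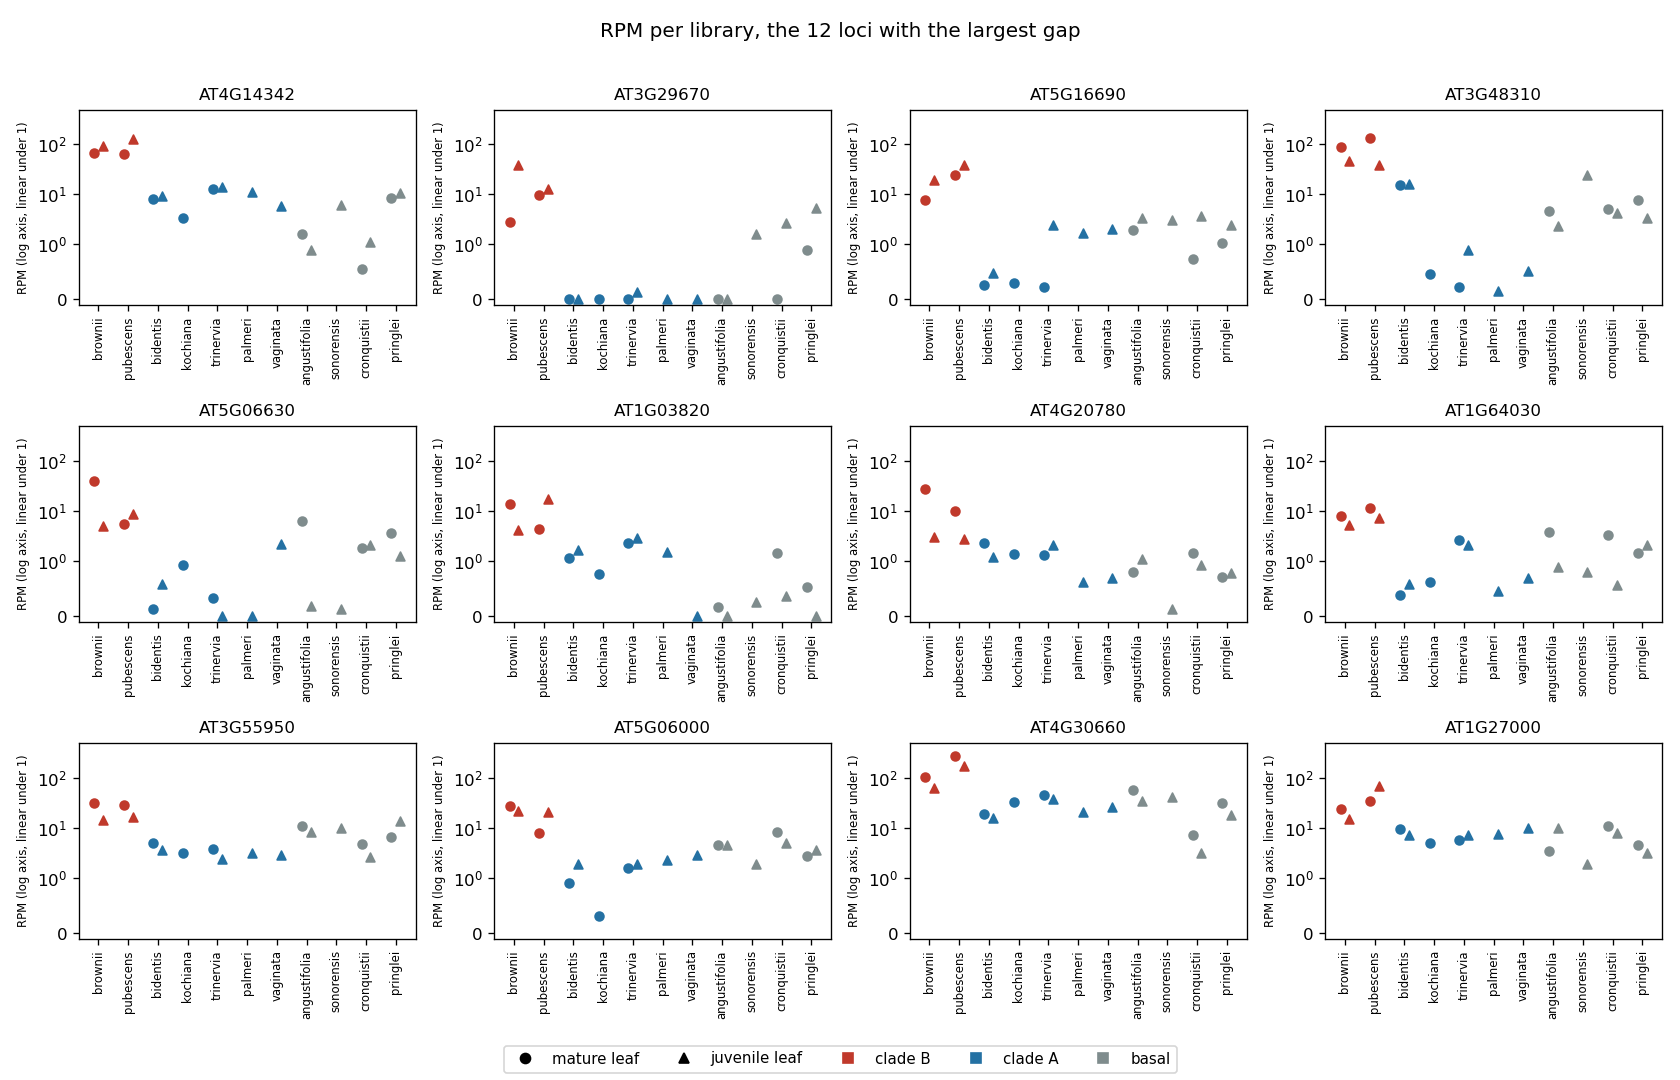
RPM in each library (vertical axis, logarithmic above 1 and linear below) for the 12 loci with the largest gaps, by species (horizontal axis), with circles for mature and triangles for juvenile leaves and colours for clade B, clade A and basal species. The clade B points of AT4G14342 sit at 64.5 RPM and above with no other point over 13.7 RPM, while those of AT3G29670 and AT5G06630 reach down into the range of the basal species.

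Of the next 2 loci by gap, AT3G55950 was even between the clade B species and AT5G06000 was not. AT3G55950 had 32.0 RPM in mature and 14.1 RPM in juvenile F. brownii, and 29.3 RPM in mature and 16.1 RPM in juvenile F. pubescens, against 2.42 to 13.7 RPM elsewhere (median 4.30 RPM). The species means of the 2 clade B species were nearly equal at 22.9 ± 0.234 RPM (SD, n = 2), against 5.51 ± 3.26 RPM in the others (SD, n = 9). The libraries did not overlap, by a small margin in juvenile leaves. AT5G06000 had 26.9 RPM in mature and 21.3 RPM in juvenile F. brownii, and 7.82 RPM in mature and 20.7 RPM in juvenile F. pubescens, against 0.306 to 8.44 RPM elsewhere (median 2.48 RPM). Mature F. pubescens fell just under the highest of these, mature F. cronquistii.

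F. pubescens had the higher level of the clade B species in the next pair. AT4G30660 had 106 RPM in mature and 63.4 RPM in juvenile F. brownii, and 281 RPM in mature and 175 RPM in juvenile F. pubescens. The 14 others ran from 3.15 to 56.8 RPM with a median of 29.0 RPM, and none reached the lowest clade B library. The 2 lowest of these came from F. cronquistii, at 7.34 RPM in mature and 3.15 RPM in juvenile leaves. AT1G27000 had 23.7 RPM in mature and 14.8 RPM in juvenile F. brownii, and 35.3 RPM in mature and 68.8 RPM in juvenile F. pubescens. No other library had more than 10.8 RPM (median 7.22 RPM), so clade B stood apart.

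Of the remaining loci among the 20 with the largest gaps, AT5G46220, AT4G17940 and AT3G26150 were higher in mature than in juvenile leaves of both clade B species, and each overlapped with other libraries. AT5G46220 averaged 8.60 ± 1.44 RPM in clade B and 1.89 ± 1.51 RPM in the other species. AT4G17940 averaged 12.6 ± 4.95 RPM in clade B and 2.31 ± 1.43 RPM in the others, and AT3G26150 averaged 20.1 ± 4.99 RPM in clade B and 4.24 ± 2.50 RPM in the others (all SD, n = 2 and n = 9). AT5G20170 and AT4G17010 did not overlap with other libraries. For AT5G20170 the libraries ran from 5.63 to 11.2 RPM in clade B against 1.03 to 4.57 RPM elsewhere, and for AT4G17010 from 21.9 to 37.3 RPM in clade B against 11.2 to 20.8 RPM elsewhere. AT4G17670 had 39.3 RPM in mature and 33.4 RPM in juvenile F. brownii, and 61.6 RPM in mature and 90.4 RPM in juvenile F. pubescens, against 5.74 to 28.2 RPM in the others, with no overlap. AT1G21600 had 58.5 RPM in mature and 84.4 RPM in juvenile F. brownii, and 66.6 RPM in mature and 109 RPM in juvenile F. pubescens, against 5.14 to 61.3 RPM in the others. The single library that crossed the clade B range was juvenile F. bidentis. AT3G63080 had 164 RPM in mature and 63.2 RPM in juvenile F. brownii, and 127 RPM in mature and 66.3 RPM in juvenile F. pubescens, against 21.9 to 64.5 RPM in the others. Here mature F. bidentis lay above juvenile F. brownii.

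AT4G22220, AT3G46010 and AT4G28060 were among the 10 loci with the highest RPM in clade B and had gaps under the median of the 43. AT4G22220, with the highest RPM of the 43 in clade B, had 322 RPM in mature and 173 RPM in juvenile F. brownii, and 231 RPM in mature and 212 RPM in juvenile F. pubescens. The other libraries ran from 72.3 to 168 RPM (median 102 RPM), so juvenile F. brownii was only just above mature F. angustifolia. AT3G46010 was even across clade B, at 99.2 RPM in mature and 102 RPM in juvenile F. brownii, and 140 RPM in mature and 95.7 RPM in juvenile F. pubescens, and all 4 exceeded the 26.0 to 82.1 RPM of the others. AT4G28060 had 45.3 RPM in mature and 99.4 RPM in juvenile F. brownii, and 50.6 RPM in mature and 135 RPM in juvenile F. pubescens, against 7.66 to 46.7 RPM elsewhere. The overlap came from mature F. brownii, which lay below juvenile F. cronquistii.

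AT1G22270 and AT5G25120 were just inside the limit, with ratios of means of 3.73 and 13.0. AT1G22270 had 43.2 RPM in mature and 113 RPM in juvenile F. brownii, and 37.2 RPM in mature and 68.8 RPM in juvenile F. pubescens, against 3.46 to 39.1 RPM elsewhere (median 15.6 RPM). The libraries that came close were those of F. cronquistii and F. angustifolia, and mature F. pubescens lay below mature F. cronquistii. AT5G25120 had 63.8 RPM in mature and 27.1 RPM in juvenile F. brownii, and 73.6 RPM in mature and 86.0 RPM in juvenile F. pubescens. A single species outside clade B set its gap: F. cronquistii had 22.4 RPM in mature and 37.6 RPM in juvenile leaves, while the 12 libraries of the other species had at most 6.15 RPM. Juvenile F. cronquistii, a C3 species, was above juvenile F. brownii.

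The 20 largest gaps, the 10 highest RPM values in clade B and the largest called changes with leaf age together pick 30 loci, those above and 5 described under leaf age. The other 13, among them AT4G18800 just inside the limit, had gaps of 0.50 to 0.71, means of 5.73 to 46.5 RPM in clade B against 1.15 to 24.8 RPM in the other species, and ratios of means from 1.87 to 15.1. In 9 of these 13 all 4 clade B libraries were above all others.

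The 2 clade B species differed by less than 0.5 on the log2(RPM + 1) scale of the species means in 32 of the 43 loci and by at least 1 in 5. With 1 library per species and stage this difference has no replicate check. All 5 were higher in F. pubescens. The largest difference, chosen after its values were seen, was in AT2G41380, where F. brownii minus F. pubescens was -1.99. That locus had 5.34 RPM in mature and 7.05 RPM in juvenile F. brownii, 20.1 RPM in mature and 37.3 RPM in juvenile F. pubescens, and at most 3.36 RPM elsewhere. The other 4 were AT4G30660 at -1.43, AT1G27000 at -1.35, AT5G16690 at -1.25 and AT4G17670 at -1.02. In 6 loci F. brownii was higher in both stages, in 12 F. pubescens was higher in both stages, and in 25 the order differed between the stages. In mature leaves F. brownii was the higher of the 2 in 24 loci, against 13 in juvenile leaves. Across the 18 libraries the highest value was in mature F. brownii for 14 loci, juvenile F. brownii for 6, mature F. pubescens for 8 and juvenile F. pubescens for 15.

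Outside clade B, no single species was always the runner-up. F. angustifolia had the highest species mean of the 9 in 9 loci, F. sonorensis in 7, F. kochiana in 6, F. bidentis and F. vaginata in 5 each, F. trinervia in 4, F. cronquistii in 3, and F. palmeri and F. pringlei in 2 each. Clade A species made up 22 of these and basal species 21. A value of 0 in at least 1 of the 14 libraries occurred in 6 loci.

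The gap was not the same in leaves of both ages, but the species compared differed too. F. kochiana entered with a mature library alone, and F. palmeri, F. vaginata and F. sonorensis with a juvenile one alone. A difference between the margins of the ages therefore mixes leaf age with species. In mature leaves both clade B libraries were above all 6 others in 39 of the 43 loci, and in juvenile leaves both were above all 8 others in 37. The rule chose the loci from these same values and no share over all loci was taken, so nothing is read from the 2 counts. When the rule, minimum level included, was applied within a stage, 11 loci met it in both stages, 15 in mature leaves alone, 11 in juvenile leaves alone and 6 in neither. AT4G14342 kept a margin of 2.24 in mature and 2.68 in juvenile leaves, and AT5G16690 one of 1.56 in mature and 2.14 in juvenile leaves. Both margins were wide in leaves of either age. AT3G48310 had a margin of 2.46 in mature leaves and 0.60 in juvenile leaves, where F. sonorensis, at 24.7 RPM, was the highest other library. AT5G06000 went the other way, with -0.10 in mature leaves and 1.85 in juvenile leaves, where a negative margin means that a library outside clade B was above the lower clade B library. AT1G32350 had a margin of 0.85 in mature leaves beside the lowest one in juvenile leaves, -0.92. There too F. sonorensis, at 7.29 RPM, was the highest other juvenile library.

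**Figure D3:**
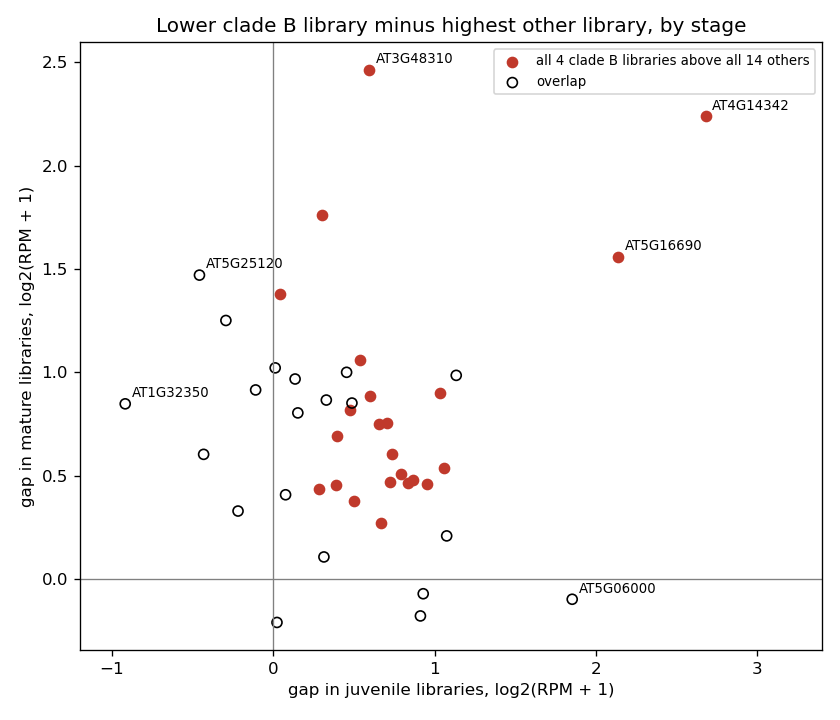
Lower clade B library minus the highest other library, as log2(RPM + 1), in juvenile leaves (horizontal axis) and mature leaves (vertical axis) for each of the 43 loci, filled where all 4 clade B libraries were above all 14 others. Most loci lie above 0 on both axes, 6 lie left of 0 and 4 lie below 0, and AT4G14342 at 2.68 and 2.24 is the only one beyond 2 on both.

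The rule averaged over stages and had no term for leaf age, but it was not free of leaf age. F. kochiana had only a mature library, and F. palmeri, F. vaginata and F. sonorensis had only juvenile ones. A change with age that the species share therefore enters the gap, and the shares below are not independent of the choice. The stages were set against each other in the 7 species that had both, with limma on log2(RPM + 1) and species as a block. Of the 43 loci 6 were higher and 8 were lower in mature leaves at a Benjamini-Hochberg adjusted p under 0.05 from limma. Over all loci tested 12.7% were higher and 37.6% lower, 50.3% in all. With RPM as deposited, the 14 calls among the 43 in either direction therefore do not exceed the background. The median change was 0.05 among the 43 and -0.31 over all loci, and 23 of the 43 had a change above 0, against 33.2% of all loci. TMM scaling moved the median of all loci to 0.00. It raised the calls among the 43 to 15 higher and 4 lower, of which 10 were among the 14. The table as a whole turned to 3361 higher and 3156 lower. As deposited the table had 1843 higher and 5448 lower. With either scaling the calls among the 43 thus held relatively more higher ones than those of the table. Only 22 of the 43 met the rule under TMM. Since the choice was not free of leaf age, nothing is read from this lean, and its reason was not tested.

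The 5 largest increases among those called were in AT1G32350, AT3G10300, AT3G57540, AT2G48150 and AT3G63080. AT1G32350 had 31.2 RPM in mature and 5.78 RPM in juvenile F. brownii, and 33.9 RPM in mature and 3.39 RPM in juvenile F. pubescens. Over the 7 species mature leaves ran from 2.56 to 33.9 RPM with a median of 4.03 RPM, and juvenile leaves from 0.537 to 5.78 RPM with a median of 3.18 RPM. The ranges overlapped, 6 of 7 species were higher in mature leaves, and the change was 1.52 ± 0.39 on the log2(RPM + 1) scale (SE; limma, Benjamini-Hochberg adjusted p = 0.00654). Outside clade B the mature library of F. cronquistii was also high, at 16.9 RPM.

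AT3G10300 was higher in mature leaves of all 7 species. It had 42.4 RPM in mature and 17.0 RPM in juvenile F. brownii, and 81.0 RPM in mature and 12.9 RPM in juvenile F. pubescens. Over the 7 species mature leaves ran from 14.8 to 81.0 RPM (median 24.9 RPM) and juvenile leaves from 8.03 to 17.0 RPM (median 12.4 RPM), with an overlap at the low end. The change was 1.17 ± 0.24 (SE; limma, adjusted p = 0.00164). AT3G57540 also had a change in the same direction in all 7 species, 1.14 ± 0.22 (SE; limma, adjusted p = 0.00112). It had 60.3 RPM in mature and 14.6 RPM in juvenile F. brownii, 46.8 RPM in mature and 19.9 RPM in juvenile F. pubescens, and medians over the 7 species of 16.3 RPM in mature and 7.66 RPM in juvenile leaves. In juvenile leaves neither clade B library stood clear of F. sonorensis, which had 18.2 RPM, by more than a small margin, and juvenile F. brownii lay below it.

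AT2G48150 was the third of these with 7 of 7 species higher in mature leaves. Mature leaves had 40.3 RPM in F. brownii and 37.9 RPM in F. pubescens, and juvenile leaves 13.6 RPM in F. brownii and 21.1 RPM in F. pubescens. The change over 7 species was 0.78 ± 0.18 (SE; limma, adjusted p = 0.00321). AT3G63080 changed by 0.74 ± 0.19 (SE; limma, adjusted p = 0.00695) and was higher in mature leaves of 6 of 7 species. The sixth locus called higher, AT4G30660, changed by 0.62 ± 0.16 (SE; limma, adjusted p = 0.00629) and was higher in mature leaves of all 7.

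The 5 largest decreases were in AT1G21600, AT3G29670, AT4G28060, AT1G70200 and AT5G16690. AT1G21600 was lower in mature leaves of all 7 species, with 5.14 to 66.6 RPM in mature leaves (median 21.8 RPM) and 28.1 to 109 RPM in juvenile leaves (median 47.4 RPM). The mature leaves of the 2 clade B species were the highest of the 7. Its change was -1.42 ± 0.26 (SE; limma, adjusted p = 0.00089), the lowest adjusted p of the 43. AT4G28060 fell by 0.98 ± 0.21 (SE; limma, adjusted p = 0.00224), with 7.83 to 50.6 RPM in mature leaves and 21.4 to 135 RPM in juvenile leaves, and was lower in mature leaves of all 7 species. AT1G70200 had 8.08 RPM in mature and 11.4 RPM in juvenile F. brownii, and 6.71 RPM in mature and 15.3 RPM in juvenile F. pubescens. It too was lower in mature leaves of all 7 species, with a change of -0.97 ± 0.23 (SE; limma, adjusted p = 0.00481).

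AT5G16690 was lower in mature leaves of all 7 species as well, with a change of -0.91 ± 0.21 (SE; limma, adjusted p = 0.00368). The change of AT3G29670, -1.07 ± 0.39 (SE; limma, adjusted p = 0.0356), was uneven. F. brownii had 2.74 RPM in mature against 39.0 RPM in juvenile leaves, while F. bidentis and F. angustifolia were at 0 in both stages. Its limma adjusted p was 0.0894 without F. brownii, 0.0903 without F. cronquistii, 0.0936 without F. pringlei and 0.0719 with TMM scaling.

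The other 3 loci called lower in mature leaves are mentioned because their calls did not hold under several alternatives, a choice made after their values were seen. They were AT1G16430 at -0.53 ± 0.18 (SE; limma, adjusted p = 0.0289), AT4G18800 at -0.58 ± 0.20 (SE; limma, adjusted p = 0.0313) and AT5G46840 at -0.50 ± 0.18 (SE; limma, adjusted p = 0.0365). With TMM scaling the limma adjusted p was 0.244 for AT1G16430, 0.217 for AT4G18800 and 0.416 for AT5G46840. The call of AT1G16430 was also lost without F. pubescens, F. trinervia, F. angustifolia or F. pringlei (limma, adjusted p = 0.0511 to 0.0914), as was that of AT4G18800 (limma, adjusted p = 0.0675 to 0.0963). For AT5G46840 it was lost without any of these and without F. brownii (limma, adjusted p = 0.0564 to 0.106).

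**Figure D4:**
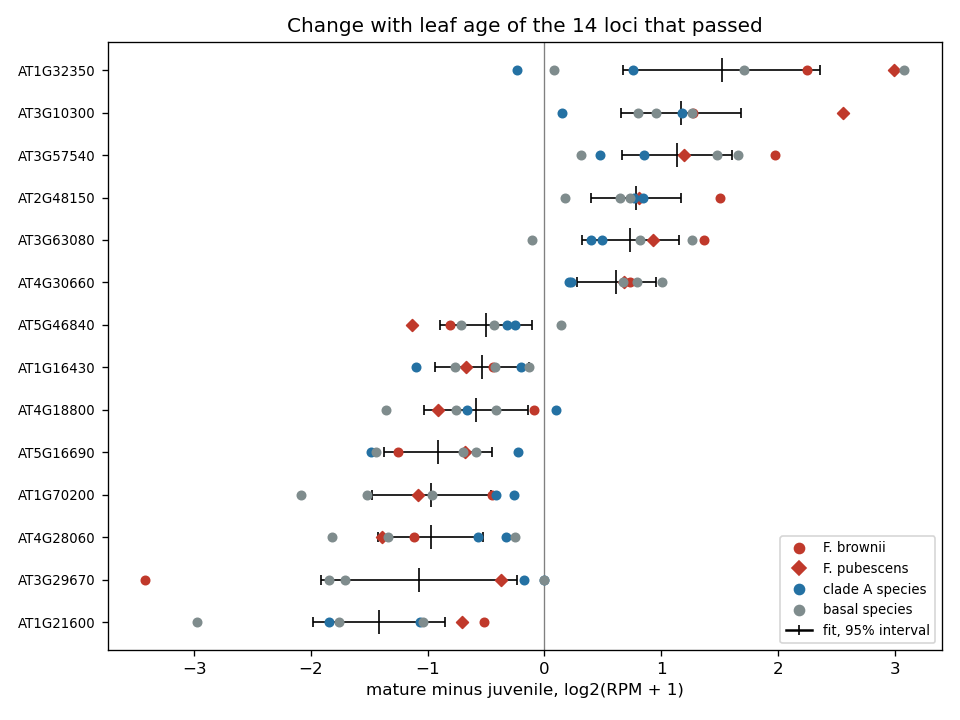
Mature minus juvenile difference in log2(RPM + 1) (horizontal axis) for the 14 loci that passed an adjusted p of 0.05 (vertical axis), with a point for each of the 7 species and a bar for the limma estimate with its 95% interval. The F. brownii point is the highest of the 7 in AT3G57540, AT2G48150, AT3G63080 and AT1G21600, and in AT3G29670 it is far below the rest.

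Whether the change with leaf age differed between the 2 clade B species and the other 5 was tested with species as the replicates, on each species' mature minus juvenile difference. With limma 0 of the 43 loci passed after Benjamini-Hochberg adjustment, as did 0 of 14500 loci in all (0.00%). At an unadjusted p under 0.05 there were 7 of the 43 and 993, or 6.85%, of all loci, and edgeR's interaction test on the recovered reads also gave 0 calls, with 3 of the 43 and 923 of all loci under that limit. The estimates of the 43 ran from -1.15 to 2.14 and their adjusted p from 0.635 to 0.996. The largest was AT4G20780, with a mature minus juvenile difference of 2.20 ± 0.87 in clade B (SD, n = 2) and 0.06 ± 0.41 in the other species (SD, n = 5). Its difference between them was 2.14 ± 0.50 (SE; limma, adjusted p = 0.635), with both clade B species higher than all 5 others. Outside clade B this locus had only 0.133 to 2.31 RPM, where the log2(RPM + 1) scale understates changes. It was 1 of 8 loci among the 43 that did not average 2 RPM without clade B. For these loci a small change in the other species is partly due to the scale. AT4G17940 followed with 1.91 ± 0.64 and AT5G46220 with 1.58 ± 0.55 (SE; limma, adjusted p = 0.657 for both). In all 7 loci under an unadjusted p of 0.05 the estimate was positive. Without that limit, estimates above 0 were found in 25 of the 43 and in 56.6% of all loci. These results include the mature library of F. brownii, whose summed senescence level and summed phloem and xylem level were above those of all other libraries. Much of the second sum was XCP1, and CESA8 had its lowest value there. Only 27 of the 43 met the rule without this library. F. brownii then rested on juvenile leaves alone and no other clade B library was left out, so this count is not particular to the library. The same libraries entered the choice and the estimates, so the estimates are not independent of the choice. Without F. brownii, which leaves F. pubescens as the only clade B species, limma also called 0 of the 43 and 0 loci in all, and the median difference of all loci was -0.11, against 0.08 with it. Both clade B species were higher in mature leaves in 17 of the 43 loci and lower in 16, and in 10 they went opposite ways.

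How the other 9 species differed among themselves is not what the rule selected on, apart from the ceiling it set. Clade A was compared with the basal species without clade B, in a limma fit with a term for stage and a random effect of species. In these libraries 35 of the 43 loci reached a mean of 2 RPM and were tested, and 8 did not. None of the 35 passed a Benjamini-Hochberg adjusted p of 0.05 from limma, against 2.86% of all loci (410 of 14342), of which 1.66% were higher and 1.20% lower in clade A. At an unadjusted p under 0.05 there were 6 of the 35 and 2314, or 16.1%, of all loci. edgeR with species ignored called 2 of the 35, both lower in clade A, among 1380 loci called in all, and nothing is read from that count. The estimates ran from -1.61 to 1.16, with 14 above 0 and 21 below.

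The lowest adjusted p was that of AT1G22270, which averaged 11.0 ± 3.20 RPM in clade A (SD, n = 5) and 25.8 ± 10.4 RPM in the basal species (SD, n = 4). Its difference was -1.22 ± 0.36 (SE; limma, adjusted p = 0.0897). AT1G43800, chosen after its values were seen, had the most negative estimate, -1.61 ± 0.52 (SE; limma, adjusted p = 0.118), with 4.72 ± 4.91 RPM in clade A and 10.8 ± 2.56 RPM in the basal species. The most positive was AT4G14342 at 1.16 ± 0.48 (SE; limma, adjusted p = 0.23), with 8.52 ± 4.03 RPM in clade A and 4.45 ± 4.19 RPM in the basal species. AT3G48310 and AT3G55950 had estimates of -1.57 ± 0.70 and -0.98 ± 0.36 (SE; limma, adjusted p = 0.271 and 0.168). AT3G55950 had 3.29 ± 0.583 RPM in clade A, whose species lay close together, and 8.28 ± 3.08 RPM in the basal species. Clade A here is all C4 or C4-like and the basal species are all C3 or C3-C4, so ancestry and photosynthetic type cannot be told apart in this comparison.

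Lists of known leaf genes were set beside the 43 loci. Of 959 listed loci in 33 lists, 933 were in the table, 818 passed the minimum level and 0 were among the 43. The lists cover photosynthesis, carbon and nitrogen metabolism, hormones, stress and defence, transport, cell walls, lipids and development, and markers of other tissues. A gap above 0 occurred in 6 of the 818, or 0.733%, against 413, or 2.85%, of all loci tested. Median gaps were -1.42 in the lists and -1.04 over all loci. In the list of 36 C4 cycle enzymes and transporters the median gap was -2.67, and 1 locus lay above 0. Neither photosystem, Calvin-Benson cycle nor photorespiration lists had a locus with a gap above 0.

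The 6 loci above 0 were chosen for mention after their values were seen, and all fell short of the limit of 0.5. NRT1.1, a nitrate transporter and sensor, had a gap of 0.23, with means of 46.0 RPM in F. brownii and 35.9 RPM in F. pubescens, against 29.5 RPM in F. pringlei, the highest of the others. KOR1, an endoglucanase needed for cellulose synthesis, had a gap of 0.15, with 322 RPM in F. brownii and 275 RPM in F. pubescens, against 247 RPM in F. vaginata. SOC1, a MADS-domain regulator of flowering, had a gap of 0.13, and RIN4, a target of bacterial effectors that immune receptors guard, one of 0.12. ASP1, an aspartate aminotransferase of mitochondria, had a gap of 0.03, with 239 RPM in F. brownii and 242 RPM in F. pubescens, against 228 RPM in F. sonorensis, so it did not set clade B apart from an intermediate of the basal group. The sixth was the ethylene receptor EIN4, at 12.3 RPM in F. brownii and 12.6 RPM in F. pubescens, against 12.1 RPM in F. palmeri.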

How the data were processed

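The authors deposited 1 table of RPM, in which each column sums to 1e+06, with 20551 Arabidopsis loci for 18 Flaveria libraries. The Arabidopsis build was TAIR10, per the submitters' processing notes, while aligner and counting rule are not given in the sources used here. Whole reads, within 0.001 of a read, were recovered from 100% of the deposited RPM values. The 3 out-group samples were not analysed here. Libraries were grouped by species and stage as labelled, and the species named in the labels pairs the stages. With 1 library per species and stage, no p-value measures the spread between plants. Those of the leaf age tests measure the spread between species. For clade A against the basal species, both stages of a species enter as correlated libraries, so the spread within species counts too.

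Tests used limma 3.58.1 with statmod 1.5.0 in R 4.3.3, on log2(RPM + 1), for loci averaging 2 RPM or more over the libraries of a fit, with a mean trend and Benjamini-Hochberg adjustment over all loci fitted. This scale understates changes of low loci. For clade A against the basal species the correlation within a species was 0.57. edgeR 4.0.16 on the recovered reads was an alternative. All tests were two-sided. Summaries and plots used Python 3.11.15, numpy 2.4.6, pandas 2.3.3 and matplotlib 3.10.9. Scripts were tested on simulated data.

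The 43 loci, the lists and the tests were chosen with earlier results of these data known. Loci named are the 20 with the largest gap, the 10 with the highest RPM in clade B, up to 5 with the largest called change in each direction of each test, and 3 on each side of the limit. Alternatives were other pseudocounts, minimum levels and gap limits, TMM scaling, single stages, 1 value per species, no species block, and leaving out each species.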

Additional observations from a re-analysis of the deposited data

Results flagged for a closer look

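In AT4G30660, the mean of F. cronquistii was far below those of the other 8 species outside clade B. It was 2.56 on the log2(RPM + 1) scale, against 4.20 for the next lowest species, and this distance was 0.554 of the range of the 9 species, above Dixon's 95% critical value. All 43 loci were examined in this way, and chance gives such a result in about 1 in 20 groups.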

How the results depend on the processing

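The number of loci that met the rule followed its settings. A limit of 0.25 gave 132 loci and a limit of 1 gave 9. Mature libraries alone gave 101, of which 26 were among the 43, and juvenile libraries alone gave 107, of which 22 were. TMM scaling gave 24. The TMM factors, by which library sizes are multiplied, were 1.13 in mature and 1.21 in juvenile F. brownii, and 0.837 in mature and 1.19 in juvenile F. pubescens, against 0.769 to 0.974 in the other mature and 0.989 to 1.17 in the other juvenile libraries. Leaving out a species outside clade B gave 49 to 75, with 75 without F. cronquistii and 65 without F. angustifolia. All 43 were kept each time, because the rule compares with the highest of the remaining species and leaving one out cannot raise it. Leaving out the mature library of F. brownii gave 53, of which 27 were among the 43. For leaf age, no replicate block (species ignored) gave 3 of the 43 and 3840 loci in all. The difference of the age change gave 0 to 2 loci when a species was left out (2 without F. pubescens). Clade A against basal species gave 240 to 457 loci and 0 to 1 of the 43 when a species was left out (fewest loci without F. angustifolia, 246 without F. bidentis and 263 without F. pringlei, and 1 of the 43 without F. bidentis or F. kochiana). It gave 180 loci with 1 value per species, and 1380 loci and 2 of the 43 with edgeR and species ignored. A wider or narrower limit, or a species fewer, changes the count of the rule by its definition. The cause of the other shifts was not tested. For single loci 158 of 196 alternatives kept the call, 38 lost it and 0 changed direction. At the lowest levels, loci rest on few reads: 155 over the 4 clade B libraries in the thinnest case.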
